A study of Rattus norvegicus with 16 samples.

Results

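Transcript levels of 10 nuclear genes that encode chaperones and proteases of mitochondria were examined in rat liver. The chaperones were Hspd1, Hspe1, Hspa9 and Trap1, and the protease genes were Lonp1, Clpp, Clpx, Afg3l2, Spg7 and Yme1l1. Members were chosen by symbol: a probe set belonged to a gene when the array annotation gave it that symbol and no other. This found 16 probe sets for the 10 genes, among 31139 on the array, and the probe set whose mean over the 16 arrays was highest stood for each gene. All 10 genes passed a filter on low signals, among 11434 genes that did.

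The livers came from male F344 rats, an inbred strain, aged 4 weeks per the labels and reared for 3 weeks on 1 of 2 diets, with or without molecular hydrogen. Whether the labelled age is that at the start or at sampling is not stated. The hydrogen CDAA group (n = 4) ate the CDAA diet, defined by its L-amino acids and deficient in choline, drank water with 0.7 mM dissolved hydrogen and breathed air with 2% hydrogen. The control CDAA group (n = 4) ate the same diet with dehydrogenized water in plain air. The hydrogen normal group (n = 4) ate the CE-2 basal chow with both hydrogen sources, and the control normal group (n = 4) ate that chow with dehydrogenized water in plain air. Hydrogen in water and in air was always given together, so the effects of the sources cannot be told apart, and the 2 diets differ in more than choline. Choline deficiency is a standard way of producing fatty liver in rats.

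Most mitochondrial proteins are made in the cytosol, cross the mitochondrial membranes unfolded and must then be folded. Hspa9, the matrix member of the heat shock protein family A, pulls incoming chains through the inner membrane, and Hspd1 with its lid Hspe1 forms the barrel-shaped chaperonin in which many of them fold. Lonp1 and the complex of Clpp and Clpx degrade damaged or surplus proteins in the matrix, Afg3l2 and Spg7 form a protease of the inner membrane that faces the matrix, and Yme1l1 faces the intermembrane space. When unfolded proteins build up inside mitochondria, cells can raise the transcription of several of these genes, a response in which the factors Atf5, Atf4 and Ddit3 have been implicated.

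Values are log2 RMA signals, in which 1 unit is a doubling. Signal levels were compared between groups, within a probe set or as the mean of a marker list. Between genes, only differences and correlations were set side by side. Each array contributed 1 rat liver, and precision is limited by how many arrays there are. Without the array controls, array medians ranged from 4.33 to 4.38, and the smallest correlation between arrays was 0.959. The labelled tissue was checked with 5 hepatocyte markers, albumin (Alb) among them, whose mean level was between 13.13 and 13.21 on every array. On the first principal component, which held 66% of the variance, 7 of the 8 normal-diet arrays lay between -35.1 and -32 and the CDAA arrays at 23.8 to 40.1. Replicate 4 of the control normal group lay between them at -13.4, closer to its own diet. The members' calls for the diet in control rats and the list counts of that comparison are given with and without it. Most other results that use that array are given only with it.

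Promoter windows of the members are shown first because Hspd1 and Hspe1 lie head to head and share upstream sequence. Windows from RefSeq on the GRCr8 assembly run from 250 bases before to 50 bases after the annotated start, and 8 of the 10 members matched. Of these, 3 are printed: the Hspe1 window, which holds the region shared with Hspd1, the Hspa9 window, which held matches to 3 motifs, and the window of Afg3l2, the member with the largest rise on the CDAA diet. They lie at chr9:64084077-64084376 on the plus strand for Hspe1, chr18:26828349-26828648 on the minus strand for Hspa9 and chr18:63268951-63269250 on the minus strand for Afg3l2. Capitals mark motif matches. The motifs searched on both strands were the heat shock element core GAANNTTC, the C/EBP-ATF response element core TGATGNAA, the E-box CACGTG, the NRF1 site core CGCATGCG and the CHOP-C/EBP site core TGCAAT.
Hspe1: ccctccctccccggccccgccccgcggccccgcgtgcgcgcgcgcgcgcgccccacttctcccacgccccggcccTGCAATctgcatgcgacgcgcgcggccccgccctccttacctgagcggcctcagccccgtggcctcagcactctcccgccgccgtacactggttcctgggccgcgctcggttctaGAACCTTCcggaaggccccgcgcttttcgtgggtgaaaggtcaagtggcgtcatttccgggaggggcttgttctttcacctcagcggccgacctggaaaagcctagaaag
Hspa9: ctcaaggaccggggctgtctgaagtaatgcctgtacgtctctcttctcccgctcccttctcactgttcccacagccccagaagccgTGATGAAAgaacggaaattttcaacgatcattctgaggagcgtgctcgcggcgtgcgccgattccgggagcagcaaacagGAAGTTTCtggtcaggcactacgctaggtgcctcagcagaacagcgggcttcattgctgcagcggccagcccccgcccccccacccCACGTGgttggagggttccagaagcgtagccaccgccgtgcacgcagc
Afg3l2: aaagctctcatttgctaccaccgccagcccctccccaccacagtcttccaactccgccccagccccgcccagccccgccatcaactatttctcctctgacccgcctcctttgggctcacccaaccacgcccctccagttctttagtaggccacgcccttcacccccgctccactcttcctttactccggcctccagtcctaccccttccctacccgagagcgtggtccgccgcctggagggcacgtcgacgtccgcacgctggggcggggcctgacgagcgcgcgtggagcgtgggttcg

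The Hspd1 window, at chr9:64083988-64084287 on the minus strand, overlapped the Hspe1 window by 211 bases, and the annotated starts of the genes were 290 bases apart. Both windows therefore hold the same GAANNTTC match, which begins at position -60 from the Hspe1 start and at position -237 from the Hspd1 start when each is read on its own strand. They likewise share a TGCAAT match, at position -175 from the Hspe1 start and position -120 from the Hspd1 start. GAANNTTC also matched in the windows of Hspa9, Clpp and Spg7, so 5 of the 8 members with a window held it, against 8.59% of 33469 windows in the table, and Hspd1 and Hspe1 share 1 match. The CACGTG motif was found in Hspa9 and Clpp, against 6.42% of all windows, and TGATGNAA in Hspa9 alone, against 3.98%. TGCAAT was in 8.37% of all windows and CGCATGCG in 1.66%. The windows of Trap1, Afg3l2 and Yme1l1 held none of these letters. The Hspd1 and Hspe1 windows had 76.3% and 70.7% G or C bases and 43 and 37 CpG dinucleotides, and the Afg3l2 window had 66.7% and 25, against medians of 51.7% and 7 over all windows. These matches describe sequence and do not show binding.

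In the values as deposited, most of the members were called for the CDAA diet in control rats, where neither group received hydrogen. Transcripts of 7 members rose and those of 1, Clpx, fell, at an adjusted p below 0.05 in limma with Benjamini-Hochberg adjustment over all tested probe sets. Only Hspd1, Clpx and Afg3l2 kept their calls in all 25 alternative settings. Among all 11434 genes, 27.3% rose and 13.3% fell in the same comparison. Afg3l2 rose most, 1.5-fold, and Clpx fell 1.52-fold. Clpp, the other subunit of the ClpXP protease, was called in the opposite direction. Its diet groups overlapped, and its call was kept in 16 of 25 alternative settings and not made under hydrogen. In 5 of the 10 members the arrays of the diets did not overlap, against 38% of all genes. The median difference over the members was 0.23, against 0.04 over all genes, and the median size regardless of sign was 0.32, against 0.17. The livers were measured in bulk, so fewer cells of a type and less RNA per cell cannot be told apart.

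The direction over all probe sets depended on how the arrays were scaled. As deposited, 4760 of the 8027 probe sets called for the diet in control rats were higher on the CDAA diet. After a further round of quantile normalization, 3941 of 7766 were higher. After each array was centred on the median of the tested probe sets, a scaling chosen after seeing the data, 3686 of 8960 were higher. That centring shifted every diet difference by -0.065 in control rats and by -0.1 under hydrogen. Of the 8 calls among the members, 4 were lost with the further quantile normalization (those of Hspe1, Lonp1, Clpp and Spg7) and 3 with that centring (Hspe1, Lonp1 and Clpp). The further quantile normalization thus left 4 of 10 members called, against 7766 of all 22634 tested probe sets. As deposited 8027 of the 22634 were called, and with that centring 8960.

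**Figure D1:**
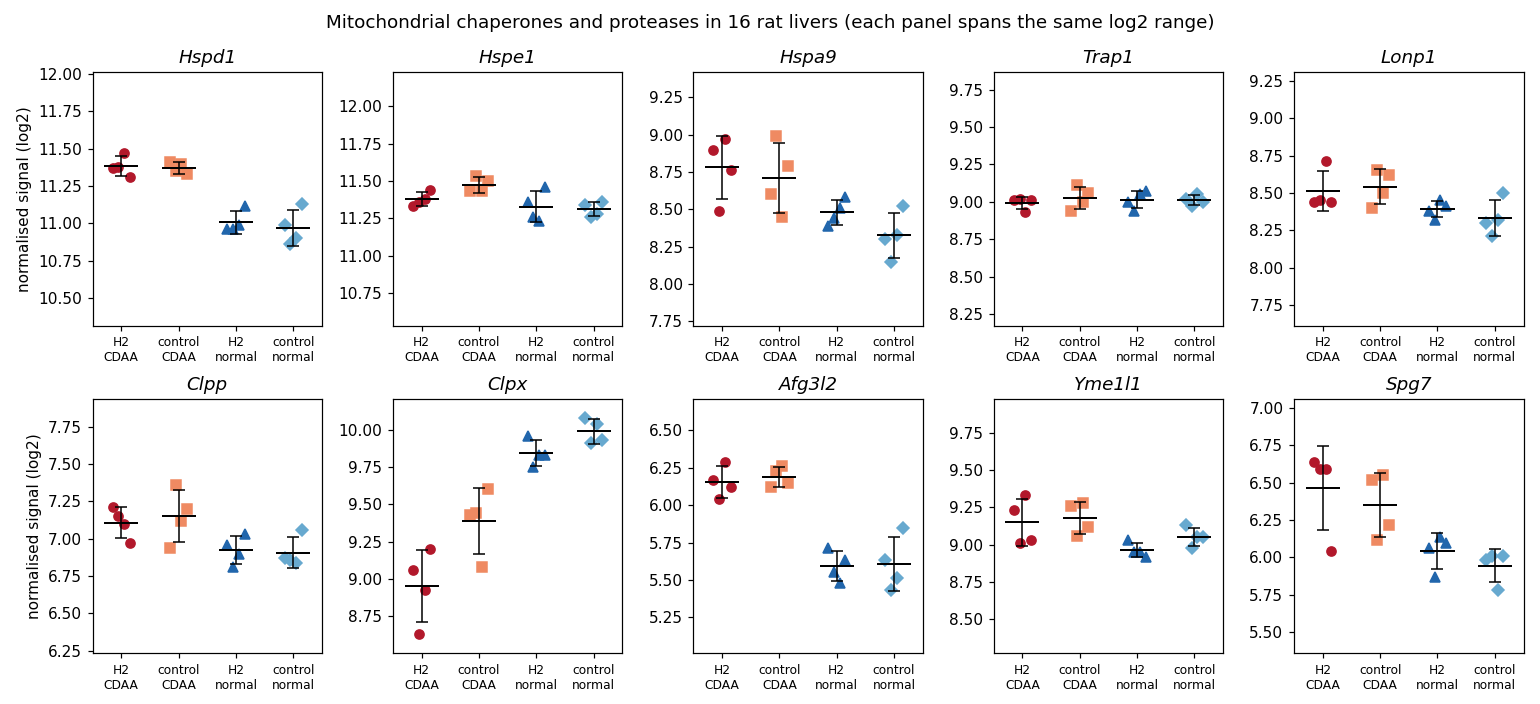
Log2 RMA signal of the 10 genes on each of the 16 arrays (points), with the mean and SD of each group of 4 rats (black bars); every panel spans the same range of log2 units. The CDAA groups of Hspd1 and Afg3l2 lie wholly above the normal-diet groups, those of Clpx lie wholly below, and Trap1 varied by only 0.18 over all arrays.

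Hspd1 encodes the chaperonin subunit that forms the folding chamber. Its signal was 11.37, 11.38, 11.47 and 11.31 in the 4 hydrogen CDAA livers and 11.41, 11.35, 11.4 and 11.33 in the control CDAA livers. The normal diet gave 10.96, 10.96, 10.99 and 11.12 with hydrogen and 10.99, 10.86, 10.9 and 11.13 without. Every CDAA liver lay above every normal-diet liver, with or without hydrogen. In control rats Hspd1 rose 1.32-fold (log2 0.40 ± 0.06 SE, 95% interval 0.27 to 0.54, limma adjusted p = 0.000166). RefSeq names 20 pseudogenes and 2 other coding copies of Hspd1 in the rat, and how far their transcripts bind to the probes is uncertain.

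Hspe1 encodes the cochaperonin that closes the chamber, and its diet difference was smaller. The levels were 11.33, 11.36, 11.38 and 11.44 in hydrogen CDAA livers and 11.43, 11.53, 11.43 and 11.5 in control CDAA livers. They were 11.36, 11.26, 11.23 and 11.46 in hydrogen normal livers and 11.34, 11.26, 11.28 and 11.36 in control normal livers. The groups without hydrogen did not overlap, while those with hydrogen did. Hspe1 rose 1.12-fold in control rats (log2 0.16 ± 0.06 SE, adjusted p = 0.0352 in limma), and the call was lost after further quantile normalization (log2 0.13, adjusted p = 0.0906). It was also lost without any 1 of 5 arrays, namely replicates 1, 2 and 3 of the control normal group and replicates 2 and 4 of the control CDAA group, at adjusted p from 0.0514 to 0.0938. Hspe1 has 1 named pseudogene.

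Hspa9 encodes the ATP-driven chaperone of the import motor. It stood at 8.9, 8.49, 8.97 and 8.76 in hydrogen CDAA livers and 8.6, 8.99, 8.45 and 8.79 in control CDAA livers. On the normal diet the levels were 8.39, 8.44, 8.51 and 8.58 with hydrogen and 8.3, 8.15, 8.33 and 8.52 without. The CDAA livers were spread over 0.48 log2 units with hydrogen and 0.54 without, and their lower arrays overlapped the upper normal-diet arrays. In control rats Hspa9 rose 1.3-fold (log2 0.38 ± 0.12 SE, adjusted p = 0.018 in limma). The adjusted p was 0.0636 without replicate 2 of the control normal group and 0.0603 without replicate 2 of the control CDAA group. A second probe set of Hspa9 that passed the filter lay far lower on the scale, at a mean of 4.18, and differed by 0.015 between the diets in control rats (adjusted p = 0.899); another did not pass, and 2 pseudogenes are named.

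Trap1, a relative of the cytosolic chaperone Hsp90 that resides in mitochondria, showed no call. Its signal lay between 8.93 and 9.02 in hydrogen CDAA livers and between 8.94 and 9.11 in control CDAA livers. The ranges on the normal diet were 8.94 to 9.07 with hydrogen and 8.97 to 9.05 without, so all 4 groups overlapped. The difference in control rats was 0.02 (95% interval -0.09 to 0.13, limma adjusted p = 0.819), an interval narrower than that of any other member.

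Clpx encodes the ATP-dependent unfoldase that feeds proteins into the ClpP chamber, and it was the only member with a call in the falling direction. Its signal was 9.06, 8.63, 8.93 and 9.2 in hydrogen CDAA livers and 9.43, 9.44, 9.08 and 9.6 in control CDAA livers. The normal diet gave 9.96, 9.75, 9.83 and 9.83 with hydrogen and 10.08, 9.91, 10.04 and 9.93 without. All 8 CDAA livers lay below all 8 normal-diet livers. The levels averaged 9.39 ± 0.22 in control CDAA livers and 9.99 ± 0.08 in control normal livers (SD, n = 4 each). Clpx fell by 0.60 on the log2 scale (SE 0.11, 95% interval -0.84 to -0.36, limma adjusted p = 0.000722), and 386 of the 11434 genes fell further.

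Clpp encodes the peptidase of the same complex. It read 7.21, 7.15, 7.1 and 6.97 in hydrogen CDAA livers and 6.94, 7.36, 7.12 and 7.2 in control CDAA livers. It read 6.96, 6.81, 6.9 and 7.03 in hydrogen normal livers and 6.87, 6.86, 6.84 and 7.06 in control normal livers. With or without hydrogen, the lowest CDAA liver lay below the highest normal-diet liver. Clpp rose 1.19-fold in control rats (log2 0.25 ± 0.09 SE, adjusted p = 0.0319 in limma). With further quantile normalization the difference was 0.14 and no longer a call (adjusted p = 0.194), and leaving out replicate 1, 2 or 3 of the control normal group or replicate 2, 3 or 4 of the control CDAA group also ended it, at adjusted p from 0.0506 to 0.104.

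Lonp1 encodes the Lon protease of the matrix. Its levels were 8.44, 8.45, 8.71 and 8.44 in hydrogen CDAA livers and 8.4, 8.65, 8.5 and 8.62 in control CDAA livers. In the normal-diet groups they were 8.38, 8.32, 8.45 and 8.41 with hydrogen and 8.3, 8.21, 8.32 and 8.5 without. The diets overlapped in both settings. Lonp1 rose 1.16-fold in control rats (log2 0.21 ± 0.08 SE, adjusted p = 0.0467 in limma), a call that was kept in 9 of 25 alternative settings; the adjusted p ranged over them from 0.0158 to 0.153. Lonp1 has a second probe set, at a mean of 3.02, which did not pass the filter.

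Afg3l2 encodes a subunit of the inner membrane protease that faces the matrix. The signal was 6.17, 6.04, 6.29 and 6.12 in hydrogen CDAA livers and 6.12, 6.23, 6.26 and 6.15 in control CDAA livers. On the normal diet it was 5.71, 5.55, 5.48 and 5.63 with hydrogen and 5.63, 5.43, 5.51 and 5.85 without. The 8 CDAA livers all lay above the 8 normal-diet livers, and the nearest of these was replicate 4 of the control normal group. In control rats the rise was 1.5-fold (log2 0.59 ± 0.08 SE, 95% interval 0.41 to 0.76, limma adjusted p = 8.03e-05), and 889 genes rose further.

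Spg7 encodes paraplegin, the partner of Afg3l2 in that protease. Its signal was 6.64, 6.59, 6.59 and 6.04 in hydrogen CDAA livers and 6.52, 6.12, 6.55 and 6.22 in control CDAA livers. It was 6.06, 5.87, 6.14 and 6.1 in hydrogen normal livers and 5.98, 6.01, 5.78 and 6.01 in control normal livers. The control groups did not overlap, and under hydrogen a single CDAA array, replicate 4, lay within the range of the normal diet. Spg7 rose 1.33-fold in control rats (log2 0.41 ± 0.13 SE, adjusted p = 0.0193 in limma). The adjusted p was 0.0522 after further quantile normalization and between 0.061 and 0.067 without replicate 3 of the control normal group or replicate 1 or 3 of the control CDAA group. A second Spg7 probe set, at a mean of 3.15, did not pass the filter.

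Yme1l1 encodes the inner membrane protease that faces the intermembrane space. Its signal ranged from 9.01 to 9.33 in hydrogen CDAA livers and from 9.06 to 9.28 in control CDAA livers. In the normal-diet groups it ranged from 8.92 to 9.03 with hydrogen and from 8.98 to 9.13 without, so the diets overlapped in both settings. The difference in control rats was 0.13 (95% interval -0.03 to 0.28, adjusted p = 0.197 in limma). Its further probe sets, with means of 7 and 6.94, differed by -0.01 and 0.04 and were not called.

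Without replicate 4 of the control normal group, the same number of members, 8, was called for the diet in control rats. With that array, 27.3% of all genes rose and 13.3% fell, and the shares without it are not given here. That array held the highest value of its group for Hspd1, Hspe1, Hspa9, Lonp1, Clpp and Afg3l2. Leaving it out gave log2 differences of 0.46 for Hspd1, 0.45 for Hspa9, 0.67 for Afg3l2 and -0.62 for Clpx. Hspe1 then differed by 0.18, Lonp1 by 0.27, Clpp by 0.30 and Spg7 by 0.43.

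The same diet comparison in rats that received hydrogen used other animals. Here 5 members rose, against 32.1% of all genes, and 1 fell, against 17.3%. The arrays of 3 members did not overlap, against 43.8% of all genes, and these were Hspd1, Clpx and Afg3l2. Over the members the median difference was 0.19, against 0.05 over all genes, and the median size was 0.24, against 0.20. Of all tested probe sets, 5778 of 10149 called were higher on the CDAA diet; the split was 4560 of 9566 after further quantile normalization and 4220 of 12387 after centring on the median of the tested probe sets.

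Among the chaperones under hydrogen, Hspd1 rose 1.3-fold (log2 0.38 ± 0.06 SE, limma adjusted p = 0.000206). Hspa9 rose 1.23-fold (log2 0.30 ± 0.12 SE, adjusted p = 0.0472), a call kept in 10 of 25 alternative settings. Hspe1 differed by 0.05 (95% interval -0.07 to 0.17, adjusted p = 0.49) and Trap1 by -0.02 (-0.13 to 0.09, adjusted p = 0.742). Among the proteases, Clpx fell by 0.89 on the log2 scale, or 1.85-fold (SE 0.11, 95% interval -1.13 to -0.65, adjusted p = 1.9e-05), and 184 genes fell further. Afg3l2 rose 1.48-fold (log2 0.56 ± 0.08 SE, adjusted p = 7.05e-05) and Spg7 rose 1.34-fold (log2 0.42 ± 0.13 SE, adjusted p = 0.0129).

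Yme1l1, the protease facing the intermembrane space, rose 1.14-fold under hydrogen (log2 0.19 ± 0.07 SE, limma adjusted p = 0.0491). This call was kept in 7 of 25 alternative settings, and the mean of its 3 probe sets differed by 0.08 (adjusted p = 0.413). Lonp1 differed by 0.12 (95% interval -0.05 to 0.29, adjusted p = 0.223) and Clpp by 0.18 (0.003 to 0.36, adjusted p = 0.0902). With further quantile normalization, Hspa9, Spg7 and Yme1l1 were no longer called (adjusted p = 0.128, 0.0693 and 0.116), which left Hspd1, Clpx and Afg3l2. Those 3 genes were called in all 25 alternative settings of both diet comparisons.

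**Figure D2:**
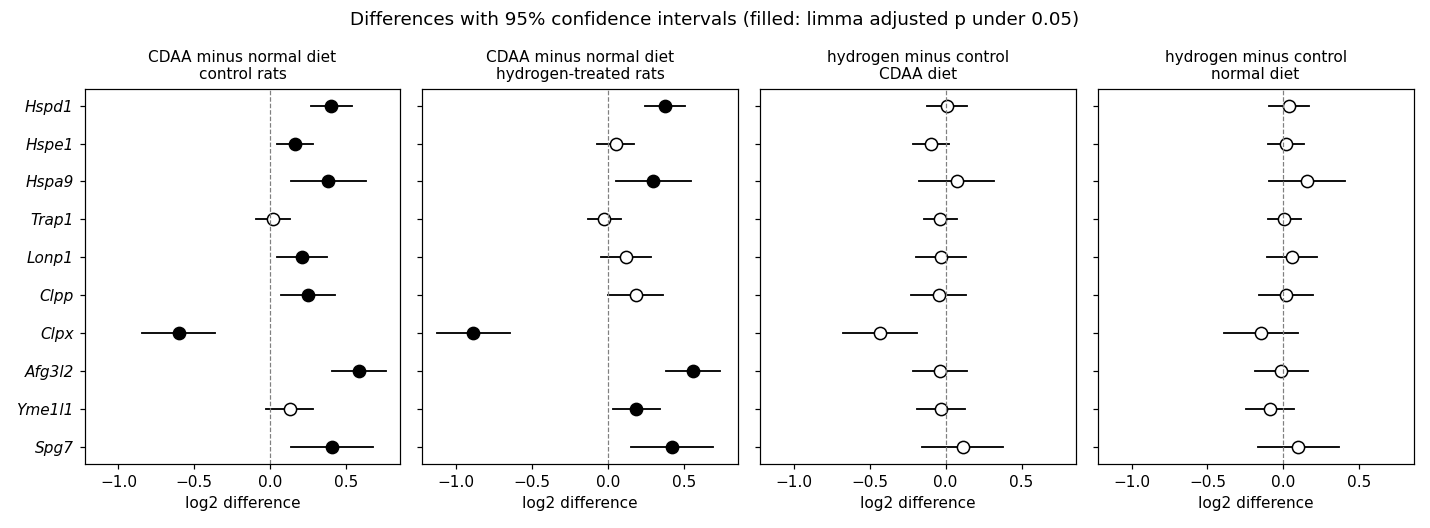
Log2 differences of the 10 genes with 95% intervals from limma, for the diet in control rats, the diet under hydrogen, hydrogen on the CDAA diet and hydrogen on the normal diet; filled points have an adjusted p below 0.05. The diet panels hold 8 and 6 filled points, and the hydrogen panels hold 0.

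Hydrogen did not give a call for any member on either diet. On the CDAA diet 0 of 10 members passed in limma, against 0.376% of all genes (43), and 1 member had an unadjusted p below 0.05. That member was Clpx, which averaged 8.96 ± 0.24 in hydrogen CDAA livers and 9.39 ± 0.22 in control CDAA livers (SD, n = 4 each). The difference was -0.43 (SE 0.11, 95% interval -0.67 to -0.19), or 1.35-fold lower with hydrogen, with an adjusted p of 0.145 in limma. The arrays overlapped: the lowest control CDAA liver, at 9.08, lay below the highest hydrogen CDAA liver, at 9.2. The adjusted p ranged from 0.0587 to 0.507 over the alternative settings, and 134 genes had a larger fall. The other members differed by between -0.095 (Hspe1) and 0.11 (Spg7), all at adjusted p of 0.554 or more, with 95% intervals of -0.22 to 0.03 for Hspe1, -0.12 to 0.14 for Hspd1 and -0.21 to 0.14 for Afg3l2.

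On the normal diet, hydrogen gave 0 calls among the members in limma, against 0.00875% of all genes (1), and 0 members had an unadjusted p below 0.05. The differences ran from -0.15 for Clpx (95% interval -0.39 to 0.09) to 0.16 for Hspa9 (-0.09 to 0.40), and the smallest adjusted p was 0.821. For Hspd1 the interval was -0.10 to 0.17 and for Afg3l2 it was -0.19 to 0.17. The difference between the diets in the hydrogen effect, tested as an interaction, gave 0 of 10 members with an adjusted p below 0.05 in limma and 0 with an unadjusted p below 0.05, against 0% of all genes with an adjusted p below 0.05. It was -0.29 for Clpx (SE 0.16, 95% interval -0.63 to 0.06, adjusted p = 0.611) and -0.11 for Hspe1 (-0.28 to 0.06, adjusted p = 0.706). For Hspa9 the interval was -0.43 to 0.27, for Spg7 -0.36 to 0.39, for Clpp -0.32 to 0.19 and for Lonp1 -0.32 to 0.14. A difference between the hydrogen and control settings was not detected for any member at this number of arrays, and these intervals do not show that the settings act alike.

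The share of each gene's variance over the 16 arrays that went with diet was 88.2% for Hspd1, 88.1% for Afg3l2 and 73.9% for Clpx. It was 57.7% for Spg7, 51% for Hspa9, 49.9% for Clpp, 41.3% for Lonp1, 40.9% for Yme1l1 and 38.4% for Hspe1. For Trap1 it was 0.1%, and 93.3% of its variance lay within groups. Hydrogen went with 11.2% of the variance of Clpx and with 5.9% or less of that of every other member. Clpx also had the widest span of the members, 1.45 log2 units over the 16 arrays.

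Known partners were compared array by array within each diet, since the diets form separate clusters. Over the 8 CDAA arrays Hspd1 and Hspe1 had a Pearson r of -0.45 (exact two-sided permutation p = 0.259, 0.776 adjusted over the 6 relations) and a Spearman rho of -0.52 (exact permutation p = 0.198, adjusted 0.595). Over the 8 normal-diet arrays r was 0.71 (exact permutation p = 0.069, adjusted 0.417) and rho was 0.51 (exact permutation p = 0.195, adjusted 0.595). Without the 2 arrays farthest from the median of Hspd1, r was 0.24 on the normal diet and -0.47 on the CDAA diet. On the normal diet these were replicate 4 of both groups, at 11.12 with hydrogen and 11.13 without. Leaving them out also narrows the range of Hspd1, which can lower r by itself, so what the positive value rests on cannot be told.

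For Clpp and Clpx, r was 0.09 on the CDAA diet (exact permutation p = 0.84, adjusted 0.903) and -0.05 on the normal diet (exact permutation p = 0.903, adjusted 0.903), with rho of 0.14 and 0.07 (exact permutation p = 0.752 and 0.874, both adjusted to 0.891). For Afg3l2 and Spg7, r was 0.07 on the CDAA diet (exact permutation p = 0.841, adjusted 0.903) and 0.17 on the normal diet (exact permutation p = 0.715, adjusted 0.903), with rho of 0.19 and 0.06 (exact permutation p = 0.647 and 0.891, both adjusted to 0.891). Without the 2 farthest arrays, these 4 values of r were 0.08, 0.23, 0.19 and 0.29. None of the 6 relations passed the threshold with 8 arrays.

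**Figure D3:**
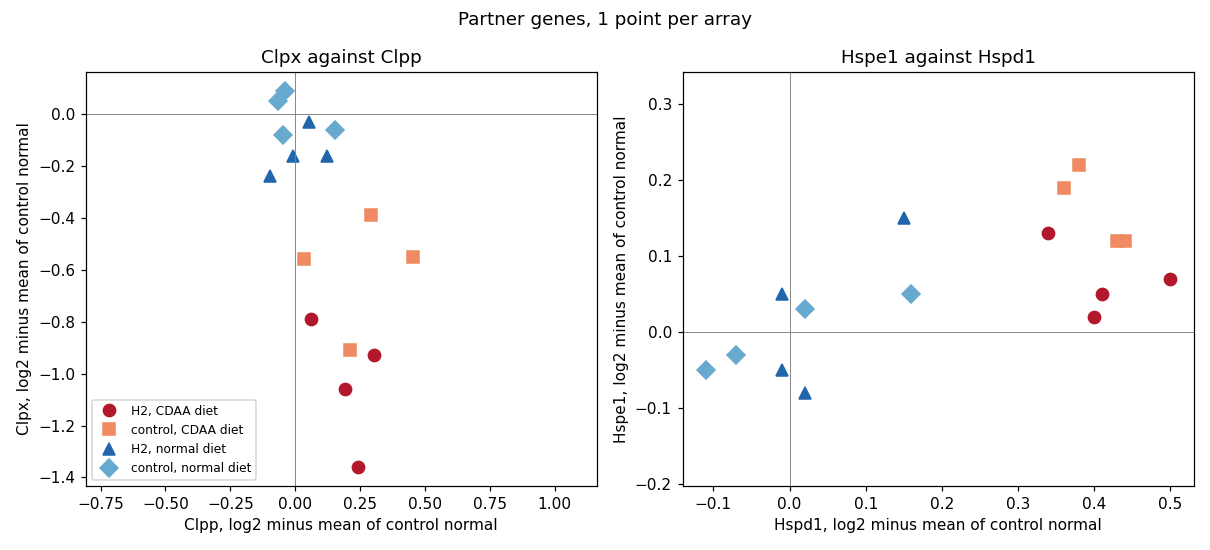
Log2 signal of Clpx against Clpp and of Hspe1 against Hspd1, each minus its mean in the control normal group, with 1 point per array and the 4 groups marked. Clpx falls below 0 on all 8 CDAA arrays while Clpp lies above 0 on all 8, and Hspd1 separates the diets more widely than Hspe1.

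The patterns most like those of Hspd1 and Lonp1 over the 16 arrays were found by Pearson correlation, given as a description of arrays that share the diet split. For Hspd1 these were Ddah1, an enzyme that breaks down methylated arginines (r = 0.98), Dync1h1, the heavy chain of cytoplasmic dynein (0.979), and Eif4ebp1, an inhibitor of cap-dependent translation (0.979). Their diet differences in control rats were 1.33, 0.58 and 1.21 on the log2 scale. For Lonp1 they were Get3 (0.903), which targets tail-anchored proteins to the endoplasmic reticulum, Ss18l2 (0.891) and Nop9 (0.87).

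Genes of the surrounding pathway were counted from 5 lists. Of 24 tested genes for protein import and cochaperones (28 listed), 11 rose on the CDAA diet in control rats and 0 fell, with a median difference of 0.21, against 27.3% and 13.3% of all genes and a median of 0.04. Receptors and small subunits of the outer membrane translocase were among them: Tomm20 rose 1.5-fold (log2 0.58, limma adjusted p = 1.98e-05), Tomm70 1.41-fold (0.50, adjusted p = 5.13e-05) and Tomm5 1.5-fold (0.58, adjusted p = 0.000138). Timm13, a chaperone of the intermembrane space, rose 1.39-fold (log2 0.48, adjusted p = 4.92e-05). With further quantile normalization, or with centring on the median of the tested probe sets, 9 of the 24 rose and 0 fell.

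Of 16 other mitochondrial proteases and scaffold genes, 3 rose and 2 fell on the CDAA diet in control rats, with a median of 0.03. Over all genes 27.3% rose and 13.3% fell. Pitrm1, which degrades cleaved targeting peptides, rose 1.45-fold (log2 0.54, adjusted p = 8.37e-05 in limma). Phb1, a prohibitin that scaffolds the inner membrane proteases, rose 1.29-fold (log2 0.37, adjusted p = 0.000859), and Htra2, a serine protease of the intermembrane space, rose 1.27-fold (log2 0.35, adjusted p = 0.000862). Immp1l, a subunit of the inner membrane peptidase that removes sorting signals, fell 1.46-fold (log2 -0.55, adjusted p = 3.61e-05). The other gene that fell, named after its value was seen, was Lactb (log2 -0.38, adjusted p = 0.0258), whose call was lost without replicate 2 or 3 of the control normal group or replicate 4 of the control CDAA group (adjusted p = 0.0648, 0.0769 and 0.0694). The median turned to -0.03 when arrays were centred on the median of the tested probe sets.

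Among regulators of the mitochondrial stress response, 15 were listed and 11 passed the filter, of which 5 rose in control rats and 0 fell, with a median of 0.36. The shares over all genes were 27.3% and 13.3%. Atf5 rose 1.88-fold (log2 0.91, adjusted p = 4.22e-05 in limma) and Atf4, a factor of the integrated stress response, rose 2.01-fold (log2 1.01, adjusted p = 0.00143). Myc, a growth-related factor, rose 11.5-fold (log2 3.52, adjusted p = 0.000246), and 20.8-fold (log2 4.38) without replicate 4 of the control normal group. Hsf1, the heat shock factor, rose 1.29-fold (log2 0.36, adjusted p = 0.00544). The remaining call, named after its value was seen, was Ddit3, the gene of CHOP (log2 1.58, adjusted p = 0.0155). The Ddit3 call was lost without replicate 2 of the control normal group (adjusted p = 0.0529) or replicate 4 of the control CDAA group (adjusted p = 0.056). With either of the rescalings above, 5 rose and 1 fell.

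Under hydrogen, Atf4 and Ddit3 were not called for the diet in limma: Atf4 differed by -0.08 (adjusted p = 0.774) and Ddit3 by 0.705 (adjusted p = 0.233). The change of their diet difference with hydrogen, tested as the interaction, was -1.09 for Atf4 (SE 0.295, adjusted p = 0.308) and -0.87 for Ddit3 (SE 0.66, adjusted p = 0.723), so neither was shown to differ between the settings. Atf5 rose 1.45-fold under hydrogen (log2 0.54, adjusted p = 0.00191), Myc 11.7-fold (log2 3.54, adjusted p = 0.000161) and Hsf1 1.25-fold (log2 0.32, adjusted p = 0.00919). The Hsf1 call was lost with centring on the median of the tested probe sets (limma adjusted p = 0.0573). The other regulators called, named after their values were seen, were Sirt3 (log2 0.43) and Esrra (0.295), which were higher, and Ubl5 (-0.19), which was lower. Of the 11 regulators, 5 thus rose and 1 fell under hydrogen, where 32.1% of all genes rose and 17.3% fell. With further quantile normalization 3 rose and 2 fell, and with centring on the median of the tested probe sets 2 and 2 did.

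For comparison, 7 of 19 cytosolic and endoplasmic reticulum chaperones rose and 1 fell in control rats, with a median of 0.15. Beside these counts, 27.3% of all genes rose and 13.3% fell. Subunits of the cytosolic chaperonin were among them, with Cct5 at 1.53-fold (log2 0.61, limma adjusted p = 4.79e-05), Cct2 at 1.41-fold (0.49, adjusted p = 7.22e-05) and Cct4 at 1.33-fold (0.41, adjusted p = 0.000154). Hspb1, a small heat shock protein, rose 2.49-fold (log2 1.32, adjusted p = 8.71e-05). The gene that fell, named after its value was seen, was Dnaja1 (log2 -0.29, adjusted p = 0.00285).

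Genes of mitochondrial content, which encode channels, respiratory chain subunits and matrix enzymes, moved in the same comparison: 10 of 20 rose and 2 fell, with a median of 0.18. By share of all genes, 27.3% rose and 13.3% fell. Vdac2, an outer membrane channel, rose 1.48-fold (log2 0.57, limma adjusted p = 2.8e-05), Cox4i1, a cytochrome oxidase subunit, 1.29-fold (0.36, adjusted p = 0.000211), Mdh2, the mitochondrial malate dehydrogenase, 1.3-fold (0.38, adjusted p = 0.000727), and Immt, a cristae protein, 1.29-fold (0.37, adjusted p = 0.000741). Those that fell, named after their values were seen, were Got2 (log2 -0.23, adjusted p = 0.00256) and Sdha (-0.16, adjusted p = 0.04). The Sdha call was lost with further quantile normalization (adjusted p = 0.144), with centring on the array median (adjusted p = 0.0567), without replicate 2, 3 or 4 of the control normal group, without replicate 3 of the hydrogen normal group and without any 1 control CDAA array, at adjusted p up to 0.0926. The medians of the import and content lists, 0.21 and 0.18, lay beside the members' 0.23. Without replicate 4 of the control normal group, the import list had 12 rising and 0 falling genes, the other proteases 3 and 2, the regulators 6 and 0, the cytosolic and reticulum chaperones 8 and 1, and the content list 10 and 1. The shares of all genes without that array were not set beside these counts.

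**Figure D4:**
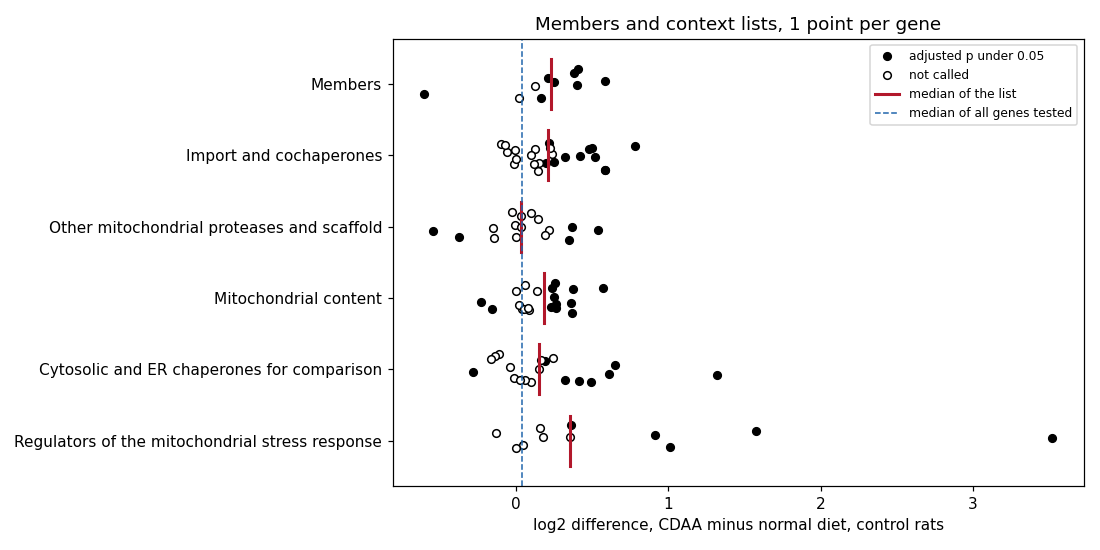
Log2 differences of the CDAA over the normal diet in control rats for the 10 members and the genes of the 5 lists; each point is a gene, filled where the limma adjusted p was below 0.05, with the list median as a red bar and the median of all genes tested (0.04) as a dashed line. The members' median lies at 0.23 and Clpx, at -0.60, is the lowest of them.

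In rats with hydrogen the diet gave median differences of 0.19 for import and cochaperones, 0.025 for other proteases, 0.30 for regulators, 0.095 for cytosolic and reticulum chaperones and 0.10 for mitochondrial content, against 0.05 over all genes. As deposited, 32.1% of all genes rose and 17.3% fell in that comparison, the shares beside which the counts of the lists stand. Among 19 cytosolic and reticulum chaperones 7 rose and 5 fell (8 and 3 with further quantile normalization, 6 and 5 with centring on the median of the tested probe sets). Those that fell, named after their values were seen, were Hsph1 (log2 -0.46), Stip1 (-0.335), Pdia4 (-0.28, limma adjusted p = 0.0425), Calr (-0.26) and Dnaja1 (-0.18), cofactors and chaperones of the cytosol and the reticulum. The Dnaja1 call was lost without replicate 2, 3 or 4 of the hydrogen normal group or replicate 3 of the hydrogen CDAA group, at adjusted p from 0.0609 to 0.13. Further quantile normalization also ended it (limma adjusted p = 0.125). Of the import genes 10 rose and 2 fell (Timm17b, log2 -0.385, and Gfer, -0.30), which became 9 and 3 or 8 and 3 with these rescalings. Of the other proteases 3 rose (Htra2, Pitrm1 and Phb1) and 3 fell (Immp1l, Lactb and Pmpca, the last at a limma adjusted p of 0.0375), which became 3 and 5 with either. Of the content genes 8 rose and 2 fell (Got2 and Sdha), which became 8 and 1 or 4 and 3. The Sdha call was lost with further quantile normalization (limma adjusted p = 0.0673). The other-protease median was -0.03 with further quantile normalization. With centring on the median of the tested probe sets it was -0.075, the content median was 0.001 and that of the cytosolic and reticulum chaperones was -0.005. Hydrogen on the CDAA diet gave a call for 1 gene of the 5 lists, against 0.376% of all genes. Gfer, a sulfhydryl oxidase of the intermembrane space import pathway, was 1.37-fold lower (log2 -0.45 ± 0.08 SE, limma adjusted p = 0.0278). That call was lost without replicate 3 or 4 of the control CDAA group or replicate 2 of the hydrogen CDAA group (adjusted p = 0.0715, 0.105 and 0.0726). On the normal diet 0 genes of the lists passed for hydrogen, against 0.00875% of all genes, with a smallest limma adjusted p of 0.387.

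Some markers of other liver cells moved with the diet and others did not. For all genes in control rats, the shares called were 27.3% higher and 13.3% lower. The mean level of 7 macrophage markers was 8.55 to 9.07 in hydrogen CDAA livers and 8.41 to 8.7 in control CDAA livers, against 7.88 to 8.12 in hydrogen normal and 7.62 to 8.4 in control normal livers. In control rats 3 of the 7 rose (Gpnmb, Cd68 and Adgre1) and 2 fell (Clec4f and Cd5l). Under hydrogen, where 32.1% of all genes rose and 17.3% fell, 5 of the 7 rose and 0 fell. For 7 stellate cell and myofibroblast markers the ranges were 7.08 to 7.3 and 6.94 to 7.25 in the hydrogen and control CDAA groups, against 6.59 to 6.74 and 6.53 to 6.97 in the hydrogen and control normal groups. Of these 7, 4 rose in control rats (Col1a2, Col3a1, Lrat and Des), while Acta2, Col1a1 and Pdgfrb were not called. Under hydrogen 6 of the 7 rose, Acta2 and Pdgfrb among them, and 0 fell. Of 4 tested bile duct markers 2 rose in control rats (Epcam and Cldn7) and Krt19 and Krt7 were not called, while Sox9 was below the filter line on every array. The list's ranges were 5.17 to 5.42 and 4.8 to 5.43, against 4.6 to 4.66 and 4.54 to 4.76, in the same order of groups.

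Endothelial markers ranged from 7.92 to 8.15 and from 7.72 to 8.07 in the hydrogen and control CDAA groups, against 7.74 to 7.94 and 7.4 to 7.97 in the hydrogen and control normal groups. In control rats 1 of 4 was called higher, where 27.3% of all genes rose, and under hydrogen 2 of 4 were, where 32.1% did. Lymphocyte markers lay between 3.89 and 4.11 and between 3.94 and 4.02, against 3.95 to 4.09 and 3.98 to 4.17, with 1 of 5 called higher and Cd3d below the line throughout. The red cell markers, 2 in number, ran from 3.77 to 4.31 and from 3.79 to 3.98, against 4.29 to 4.56 and 4.35 to 4.78. Both fell in control rats, and 1 of the 2 fell under hydrogen. The hepatocyte list, with 5 markers, lay at 13.13 to 13.16 and 13.14 to 13.21, against 13.14 to 13.18 and 13.14 to 13.17. In control rats 1 of its markers was called higher and 1 lower. Albumin reached the largest value in the data, so this list lies near the top of the signal scale. Whether signals there could still follow hepatocyte content was not tested, so these ranges do not show that the content was constant. The part of these cell types in the diet differences of the members was not tested.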

How the data were processed

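Total RNA of 16 rat livers was hybridised to RG-230 PM array strips after amplification from the poly(A) end, per the labels' protocols. The authors deposited log2 expression values with 2 decimals, 1 per probe set and array. Per the submitters' processing notes, the tools were RMA and Affymetrix Expression Console; their versions are not given in the sources used here. RMA equalises the arrays' distributions, so a change shared by all transcripts would not show, and a probe set combines probes that can bind related transcripts.

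From these values, 97 control probe sets were removed, and probe sets above 3.68, the 30th percentile over all probe sets other than array controls, on at least 4 arrays were kept (22634). Array annotation gave 19069 probe sets 1 symbol, 572 several and 11407 none listed. In limma 3.58.1 (R 4.3.3), a mean for each group was estimated from all 16 arrays together, followed by eBayes. Benjamini-Hochberg adjustment covered all 22634 probe sets of a comparison, with a threshold of 0.05. Every adjusted p of a gene in the text is from limma. The script was tested on simulated data. Single relations used exact permutation tests (SciPy 1.17.1, Python 3.11.15), and figures used matplotlib 3.10.9. Replicates are separate rats per the labels, and scan date and strip are not given in them.

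The members, lists and alternatives were chosen with earlier results of these data known. All members are named, and from each list up to 4 called genes of smallest adjusted p for the diet in control rats and up to 2 for hydrogen on the CDAA diet. For likeness, the 3 genes of highest correlation with Hspd1 and with Lonp1 are named. Alternatives were other filters, scalings, probe set means, fits on fewer groups, an intensity trend, a replicate block and leaving out each array.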

Additional observations from a re-analysis of the deposited data

Results flagged for a closer look

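Within each group of 4 rats, the highest or lowest array was set against the others by Dixon's 95% criterion, the gap to the nearest array over the range, for all 10 members, which makes 40 groups. Of these, 5 passed, and chance alone passes about 1 in 20 groups. In the hydrogen CDAA group the lowest array of Trap1 stood at 8.93, the highest array of Lonp1 at 8.71 and the lowest array of Spg7 at 6.04. In the control normal group the highest array of Clpp stood at 7.06 and the lowest array of Spg7 at 5.78.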

How the results depend on the processing

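Each member's difference was recomputed under 25 alternatives (24 for the interaction). Of the 1240 values, 1167 kept their direction and side of the threshold or were not called in either setting, 72 lost their call, 1 gained one (Clpp under hydrogen without replicate 4 of the hydrogen CDAA group, log2 0.23, limma adjusted p = 0.0483) and 0 called values changed sign; the sign turned for 47 values that were not called. Of the 8 members called for the diet in control rats, 4 were called with quantile normalization applied again, 5 with arrays centred on the median of the tested probe sets (chosen after seeing the data), and 4 to 8 without 1 array. The count was 4 without replicate 2 or 3 of the control normal group or replicate 2 of the control CDAA group. The probe sets called with these rescalings, of 22634 tested, are counted above. In control rats their number changed less, in proportion, than that of the members with quantile normalization again. Shares of all genes were not set beside the counts without 1 array or with a replicate block. Under hydrogen, 3 of 6 members were called with quantile normalization again. Hydrogen and the interaction gave 0 members under every alternative run. Hspd1, Clpx and Afg3l2 were called under all 25 in both diet comparisons, with log2 differences in control rats of 0.34 to 0.46, -0.67 to -0.50 and 0.50 to 0.67. With a replicate block, 8 and 5 members were called for the diet in control rats and under hydrogen; Hspa9 lost its call under hydrogen (adjusted p = 0.06). The labels tie the numbers to no shared factor and same-numbered arrays correlated at -0.13 to 0.33 (mean 0.06), so the numbers were not taken to pair the rats; 8 of 16 arrays correlated best with their own number, against 4 by chance, a hint of pairing from the data. The cause of the lost calls was not tested. The differences called were small, and scan batch and probe cross-binding could not be checked.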
